A study of Aspergillus nidulans with 38 samples.

Results

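Late risers were genes of the filamentous fungus *Aspergillus nidulans* whose transcripts stayed, on average over the first 40 min of micafungin exposure, near their starting level and then climbed to the end of the time course. The RNA-seq libraries came from the strain labelled parental (FGSC A1405, the control strain of the study), with no deletion or second treatment named. Each of 3 biological replicates was a shake flask, grown for about 20 h at 28 °C, to which micafungin was added at 20 ng/ml culture per 1 g/kg biomass. The flask was sampled at 13 times, first at 0 min (before addition), then at intervals of 5 or 10 min up to 60 min, and last at 75, 90 and 120 min. There were 3 libraries at each time except 15 min, which had 2 and was used in no comparison. Its libraries did count in the filter that set which genes were tested. No library here came from an untreated flask at the later times, so exposure to micafungin and time in the flask cannot be told apart.

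Members were chosen by measured values. Counts were scaled to CPM (reads of a gene per 1000000 reads assigned to genes in that library), and the log2 ratio of CPM + 1 to that of the 0 min library of the same flask was taken. A member had at least 1 CPM in every 0 min library, a mean log2 change between -0.3 and 0.3 over the 5 times of 5, 10, 20, 30 and 40 min (the early mean), a mean of at least 1.2 at 120 min, and more than 0.6 at 120 min in each flask. This gave 115 of 9541 genes, out of 7533 that reached the floor at 0 min. Another 207 genes met the same demands at 0 and 120 min but lay above the early window (earlier risers), and 23 lay below it. Values at 0, 5, 10, 20, 30, 40 and 120 min therefore describe how the members were picked and carry no test. The 25, 50, 60, 75 and 90 min libraries were not used by the rule, but they came from the same 3 flasks.

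Micafungin blocks the synthesis of β-1,3-glucan, a main load-bearing polymer of the fungal wall, and wall damage is sensed through the cell wall integrity pathway. Some members with a named product have well-known roles. Xanthine dehydrogenase and uricase act one after the other in purine breakdown, which frees nitrogen from purine rings. Isocitrate lyase of the glyoxylate cycle and fructose-1,6-bisphosphatase of gluconeogenesis let cells build sugar from acetate. Alternative oxidase passes electrons from ubiquinol straight to oxygen in the mitochondrion, past the cytochrome part of the respiratory chain.

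Depth ranged from 5814843 to 10846567 reads assigned to genes per library. As a check on the culture, 8 markers of conidiophore cells (brlA, abaA, wetA, rodA, dewA, yA, wA and ivoB) were summed. The sum was 20.2 to 24.5 CPM in the 3 libraries at 0 min, 19.7 to 26.6 CPM at 25 min and 28.5 to 150.0 CPM at 90 min, and at most 1 of the 8 was at 0 in any library. Flask 2 held the highest sum at 90 min (150.0 CPM, against 35.2 and 28.5 CPM in flasks 1 and 3). Of the 8, 7 could be tested, and brlA and ivoB rose between 25 and 90 min. The part of these markers in the rise of the late risers was not tested, but the counts without flask 2 are given below. In bulk RNA, a change in the share of a cell type and a change in RNA per cell cannot be told apart.

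The members climbed gradually. Their median log2 change was -0.03, -0.02 and 0.10 after 5, 10 and 20 min, then 0.21 at 30 min and 0.30 at 40 min. It reached 0.47 and 0.65 after 50 and 60 min, 0.99 and 1.13 after 75 and 90 min and 1.55 in the end, while the median of all genes with at least 1 CPM at 0 min stayed between -0.02 and 0.05. The name flat thus held for the early mean but not for every time. At 40 min 58 members were above 0.3 and 2 were below -0.3, at 30 min 38 were above 0.3, and 87 of the 115 left the band of ±0.3 at 1 or more of the 5 early times. AN0056 had a mean of -0.75 at 20 min, with flask 3 lowest (-2.66, against -0.04 and 0.44 in flasks 1 and 2), and AN8366 was already at 1.02 at 40 min, with the same flask highest (2.35, against 0.74 and -0.03).

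The mean change first reached 1 (a doubling) at 40 min in 1 member, and 9 members followed at 50 min, 12 at 60 min and 33 at 75 min. Another 26 got there at 90 min and the last 34 at 120 min. The highest mean was at 120 min in 114 of 115 members, with AN2445 as the exception. The 3 flasks did not climb in step. At 50 min 34 members had doubled in flask 2, 16 in flask 1 and 13 in flask 3. By 75 min flask 1 led with 78, against 58 in flask 2 and 40 in flask 3. At 90 min the counts were 92, 55 and 55 in flasks 1, 2 and 3, and at 120 min they were 102, 81 and 110. The median change in flask 3 went from 0.85 at 90 min to 1.80 at 120 min, whereas in flask 1 it went from 1.53 to 1.60.

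**Figure D1:**
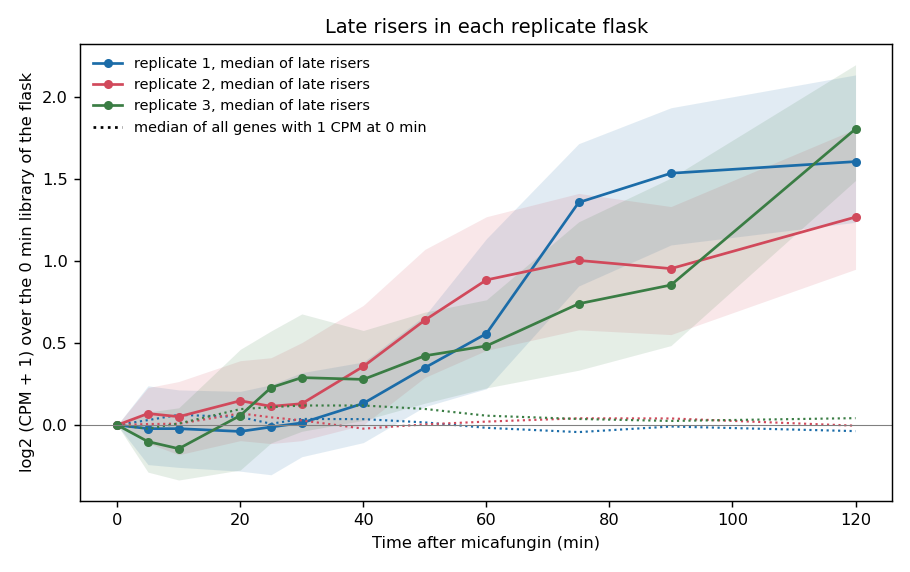
Median log2 change of (CPM + 1) over the 0 min library of the same flask (y axis) against time after micafungin in min (x axis) for the 115 late risers, one solid line per replicate flask with the middle 50% of members shaded, and dotted lines for the median of all genes with at least 1 CPM at 0 min. Flask 2 led at 50 and 60 min, flask 1 at 75 and 90 min, and flask 3 at 120 min (medians of 1.60, 1.27 and 1.80 in flasks 1, 2 and 3).

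**Figure D2:**
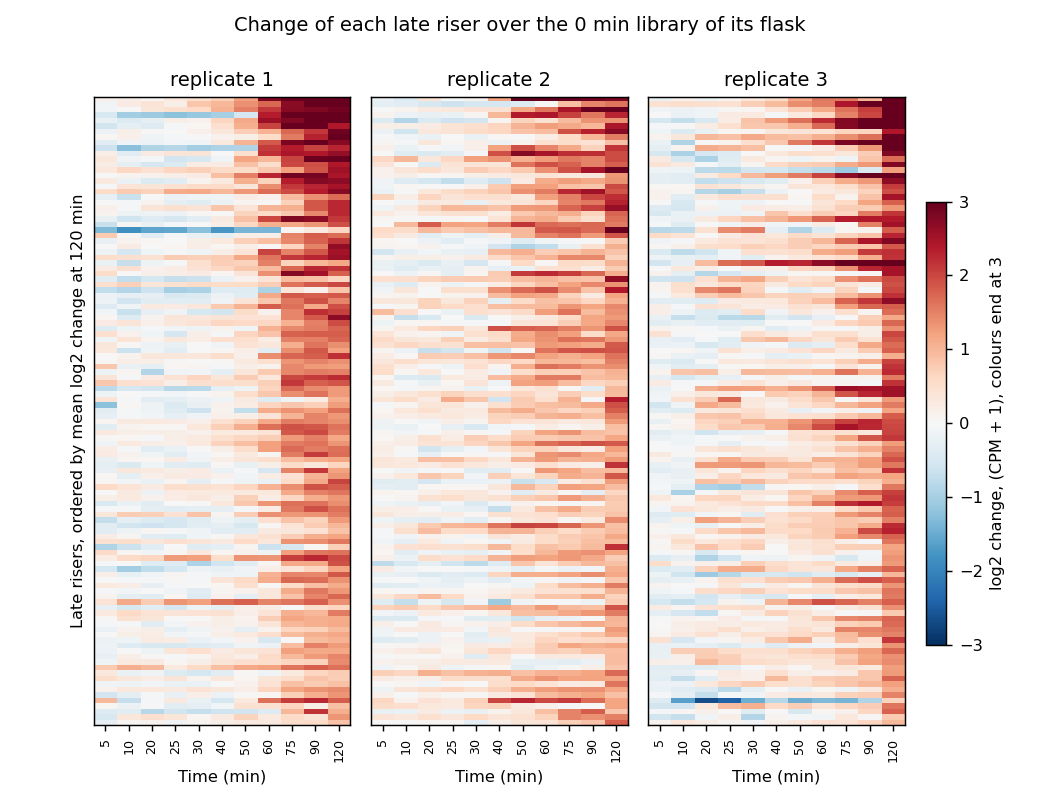
Log2 change of (CPM + 1) over the 0 min library of the same flask for each of the 115 late risers (rows, ordered by mean change at 120 min) at 11 times (columns, min), one panel per replicate flask, with colours ending at 3 in either direction. The late columns are red in all panels because the rule demanded it at 120 min, and the onset of red differs between flasks.

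Members just inside the lower limit at 120 min were AN8884 (1.205), AN6836 (1.207) and AN2445 (1.217), and just outside were AN8415 (1.193), AN6352 (1.186) and AN0709 (1.186). At the upper end of the early window the members were AN7110 (0.296), AN6025 (0.295) and AN0484 (0.291), next to AN5764 (0.303), AN8356 (0.305) and AN7280 (0.311), which were left out. At the lower end AN9470 (-0.268), AN3361 (-0.267) and AN2310 (-0.252) were in, and AN0918 (-0.367), AN0833 (-0.388) and AN7989 (-0.404) were out. At the upper end and at 120 min the genes on either side of the limit had nearly equal values.

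Members started low. Their mean level at 0 min ran from 1.51 to 422.9 CPM with a median of 16.2 CPM, against 55.1 CPM for all genes that reached the floor, and 42 members were under 10 CPM. At 120 min the median was 56.1 CPM and the 115 genes together summed to 16700 CPM, against 4740 CPM at 0 min. These levels are not corrected for transcript length.

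Whether the members rose in the libraries that the rule had not used was asked with edgeR's quasi-likelihood test (Benjamini-Hochberg adjusted p under 0.05 over 8290 genes, flask as a block). All 115 members passed the filter on low counts. Between 25 and 90 min 72 of the 115 members rose and 0 fell, where 7.85% of all genes tested rose and 7.15% fell. The median fitted log2 fold change of the members was 1.14, against 0.01 over all genes tested, and the range was -0.97 to 2.93. The change was upward in all 3 flasks in 94 members, and 56 of the 72 at least doubled. These counts were not made over all genes, so no background share stands beside them. The 3 libraries at 90 min lay above all 3 at 25 min in 55 members (8.52% of all genes). No member fell in any comparison below either, by edgeR (0 with an unadjusted p under 0.05) or by DESeq2 (0).

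Between 25 and 75 min 50 members rose, where 4.78% of all genes rose and 3.75% fell, with a median of 0.98. The libraries of the 2 times did not overlap in 50 members (6.51% of all genes). Between 25 and 60 min 9 members rose (1.05% of all genes rose and 0.434% fell), with a median of 0.61, and 31 did not overlap (5.31% of all genes). Between 25 and 50 min the median was 0.37 and 19 members did not overlap (3.73% of all genes). At that time edgeR called 0 members (0.193% of all genes), and DESeq2 called 8 (1.04% of all genes). An unadjusted edgeR p under 0.05 was found in 26 members, a count that was not made over all genes. All 9 members called at 60 min and 49 of the 50 called at 75 min were also called at 90 min, and 42 members passed in none of the 4 comparisons. The earlier risers, picked by the same demands at 120 min, were called in 143 of 207 at 90 min with a median of 1.03 over 25 min. This comparison starts from a 25 min level at which they had already risen.

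These counts depended on which libraries and terms were in the fit. A fit of fewer libraries also has less power, and its part in the losses below was not tested. Without the flask block 18 members passed at 90 min, 3 at 75 min and 0 at 60 min, against 1.53%, 0.483% and 0.0362% of all genes. When only the libraries of the compared times were fitted, 1 passed at 90 min and 0 at 75 and 60 min. Of all genes 0.0965%, 0.0241% and 0.0% passed in those fits, so calls fell over all genes too. Leaving out flask 1, 2 or 3 left 28, 52 or 26 members at 90 min (3.02%, 6.14% and 1.91% of all genes), while the median change of the members was 0.88, 1.28 and 1.17. At 75 min 16, 33 or 7 members were left, against 1.39%, 4.16% and 0.651% of all genes. At 60 min 1, 13 or 1 were left, against 0.121%, 1.8% and 0.169% of all genes, and 4 of the 13 without flask 2 were among the 9 above. Of 36 members named here that rose between 25 and 90 min, 12 passed whichever flask was left out and 24 lost the call at least once, 7 of them in each of the 3 cases. AN0056 and AN8366, named above, also rose but are not among the 36.

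**Figure D3:**
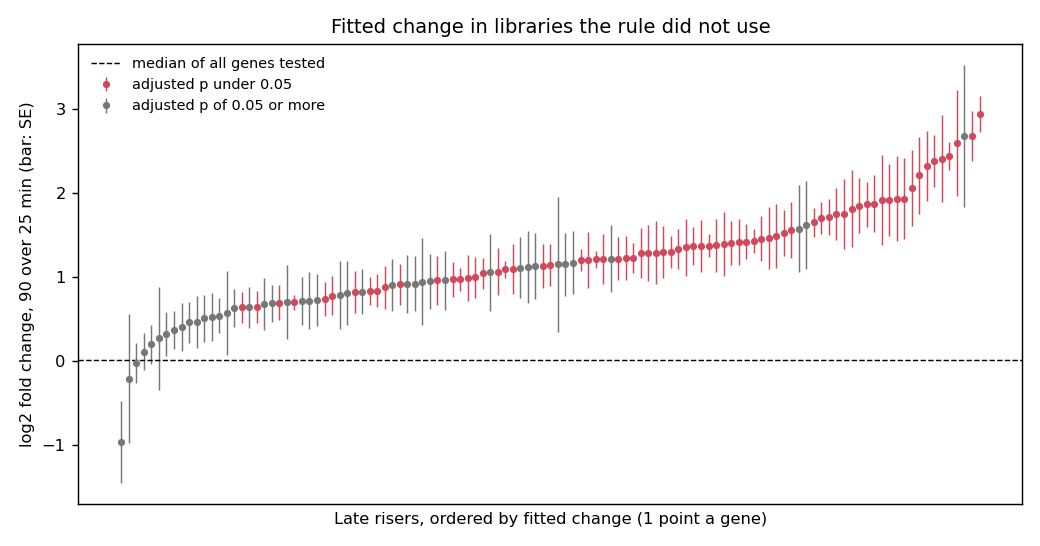
Fitted log2 fold change between 25 and 90 min (y axis, bars show the standard error) for the 115 late risers in order of size (x axis), from 3 libraries at each time. The 72 members with an edgeR adjusted p under 0.05 are red, the others grey, and the dashed line is the median of all 8290 genes tested (0.01).

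An added comparison, chosen after the data were seen, asked which members still rose after 60 min. Between 60 and 90 min 5 members rose with edgeR (0.205% of all genes rose and 0.0121% fell), namely AN2039, AN0234, AN1893, AN4480 and AN7622. The median change was 0.49, and 13 did not overlap (2.98% of all genes). An unadjusted edgeR p under 0.05 was found in 45 members, again a count not made over all genes. Without flask 1, 2 or 3 the count was 0, 7 or 0, against 0.0241%, 0.808% and 0.0965% of all genes. Only 1 of the 7 was among the 5 named above. AN7622, a gene with no named product, stood at 27.2, 34.4 and 29.9 CPM in flasks 1 to 3 at 60 min and at 51.3, 58.2 and 43.6 CPM at 90 min. Its 3 flasks rose by similar amounts and the groups did not overlap.

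The member that rose most over the 0 min library was alxA (AN2099), which encodes the mitochondrial alternative oxidase. It was at 24.4, 41.9 and 16.4 CPM in flasks 1 to 3 at 0 min and at 30.9, 41.2 and 17.1 CPM at 25 min. At 60 min it was at 173.4, 409.9 and 51.4 CPM, at 90 min at 378.9, 316.6 and 34.2 CPM, and at 120 min at 299.4, 295.7 and 736.9 CPM. Flasks 1 and 2 were high by 90 min and flask 3 only at 120 min, so the 25 and 90 min libraries overlapped, although each flask rose. The fitted change from 25 to 90 min was 2.59 ± 0.63 (log2, SE), a 6.02-fold rise (edgeR adjusted p = 0.0199). The call was lost whichever flask was left out, with the fold at 3.86 without flask 1 and 10.2 without flask 3, and also without the flask block.

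Purine breakdown was represented by 2 members, which form a pair picked from the annotation after the values were seen. The uricase gene AN9470 is the member with the lowest early mean (-0.27). It was at 145.5, 152.7 and 59.0 CPM at 0 min and at 61.5, 132.4 and 70.5 CPM at 25 min. The levels were 1596, 457.8 and 237.8 CPM at 90 min and 1248, 751.8 and 1059 CPM at 120 min. All 3 libraries at 90 min were above those at 25 min, flask 1 by far the most. The fitted change was 2.68 ± 0.84 (log2, SE) and missed the threshold (edgeR adjusted p = 0.0551), but passed with DESeq2 (2.65). It also passed in an edgeR fit of 36 libraries (3.01). That fit includes the libraries that the rule used to pick the members. A pass in it, here and below, is therefore a description and no separate support.

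The xanthine dehydrogenase gene hxA (AN5613), which makes the urate that uricase consumes, was at 135.8, 235.0 and 138.9 CPM at 25 min and at 646.3, 257.4 and 181.7 CPM at 90 min. Flask 1 carried the difference and the groups overlapped (0.94 ± 0.52, log2, SE, edgeR adjusted p = 0.245). In flask 2 hxA had been higher at 60 min (477.9 CPM). Outside the members, hxB (AN1637), whose product activates the hxA enzyme, changed by 0.21 ± 0.22 (log2, SE, edgeR adjusted p = 0.55).

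The opsin-like gene nopA (AN3361), annotated with ion channel activity, first dipped and then rose. It went from 65.3, 91.8 and 54.5 CPM at 0 min to 52.2, 54.2 and 35.0 CPM at 25 min. It then stood at 448.0, 201.8 and 136.6 CPM at 90 min and at 423.6, 233.4 and 353.7 CPM at 120 min. The groups at 25 and 90 min did not overlap, and the rise was 2.38 ± 0.31 (log2, SE), or 5.19-fold (edgeR adjusted p = 0.000988). It was already called at 60 min (1.51, edgeR adjusted p = 0.036).

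Of the members that handle sugars and their precursors, acuD (AN5634, isocitrate lyase) was at 17.5, 12.5 and 17.6 CPM at 25 min and at 41.9, 37.4 and 18.7 CPM at 90 min. Flask 3 had hardly moved at 90 min and stood at 80.8 CPM at 120 min. The groups at 25 and 90 min just did not overlap, and the fitted change missed the threshold (0.96 ± 0.36, log2, SE, edgeR adjusted p = 0.0945). The fructose-1,6-bisphosphatase gene AN5604 (fbp1 in RefSeq, acuG elsewhere) was at 40.3, 48.8 and 69.8 CPM at 25 min and at 136.4, 69.5 and 106.3 CPM at 90 min. Its flasks were nearly equal at 120 min (148.1, 140.2 and 142.6 CPM), but 25 and 90 min overlapped (0.94 ± 0.33, log2, SE, edgeR adjusted p = 0.0764). Both genes passed with DESeq2 (0.94 for each), and AN5604 also in the fit of 36 libraries (0.99).

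The glycogen phosphorylase gene glpV (AN1015), whose product releases glucose units from glycogen, changed by 0.82 ± 0.27 between 25 and 90 min (log2, SE, edgeR adjusted p = 0.0645), and passed with DESeq2 (0.82) and in the fit of 36 libraries (0.85). Trehalose is a storage and stress sugar, and a pair of members is tied to its synthesis. The gene ccg9 (AN5021), whose *Neurospora crassa* namesake encodes a trehalose synthase, rose by 1.49 ± 0.38 (log2, SE, edgeR adjusted p = 0.0244), from 28.5, 32.0 and 33.0 CPM at 25 min to 157.1, 71.6 and 51.6 CPM at 90 min. AN8639, annotated to trehalose synthesis, rose by 1.93 ± 0.48 (log2, SE, edgeR adjusted p = 0.0224) from a low level (3.04, 1.63 and 1.33 CPM at 25 min and 19.3, 4.79 and 2.12 CPM at 90 min). Flask 1 was highest for both genes, and both lost the call whichever flask was left out and also without the flask block. Without flask 1 the change was 0.90 for ccg9 and 1.20 for AN8639, and without flask 3 it was 1.90 and 2.26.

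AN5977, annotated to pyruvate metabolism, had the largest share of reads among members, with a mean of 699 CPM over the 15 libraries tested. It rose by 1.75 ± 0.42 (log2, SE, edgeR adjusted p = 0.0195), from 192.3, 396.4 and 274.7 CPM at 25 min to 1233, 477.5 and 1484 CPM at 90 min. Flask 2 had the highest level at 25 min and the lowest at 90 min. The call was lost without flask 1 (1.34) or flask 3 (1.34).

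The following members were named for their annotation after their values were seen. AN2509, a heme protein annotated to the breakdown of tryptophan to kynurenine, rose by 1.37 ± 0.13 (log2, SE, edgeR adjusted p = 0.000165) and was among the 9 called at 60 min. It stood at 22.6, 30.6 and 12.9 CPM at 25 min and at 64.8, 87.9 and 25.6 CPM at 90 min. Each flask about kept its rank, so the groups overlapped although every flask rose. The transaminase gene AN6048 rose by 0.97 ± 0.21 (edgeR adjusted p = 0.0112) and the iron-binding dioxygenase gene AN4081 by 0.82 ± 0.25 (edgeR adjusted p = 0.0469), both on the log2 scale with SE. AN6048 lost the call without flask 1 (0.71) or flask 3 (1.04), and AN4081 whichever flask was left out (0.34 without flask 1).

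The NAD-specific glutamate dehydrogenase gene AN7451, which releases ammonia from glutamate, changed by 0.53 ± 0.21 (log2, SE, edgeR adjusted p = 0.109). The pyrroline-5-carboxylate reductase gene AN6025, of proline synthesis, changed by 0.46 ± 0.24 (log2, SE, edgeR adjusted p = 0.231). The copper amine oxidase gene AN6092 barely moved between these times (0.11 ± 0.22, log2, SE, edgeR adjusted p = 0.775). It was at 51.7, 53.2 and 48.6 CPM at 90 min and at 64.5, 216.5 and 61.2 CPM at 120 min, so it gained most between 90 and 120 min, above all in flask 2. The gene for pyridoxamine-phosphate oxidase (AN2310), which makes the cofactor of transaminases, rose by 1.21 ± 0.29 (log2, SE, edgeR adjusted p = 0.0202), from 248.4, 188.2 and 194.0 CPM at 25 min to 639.9, 616.1 and 298.8 CPM at 90 min. Its call was lost whichever flask was left out (1.02 to 1.52).

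By annotation, 15 members were dehydrogenases, reductases or other oxidoreductases. How many of all genes carry such an annotation was not counted. Between 25 and 90 min 8 of the 15 rose (median log2 change 0.98), where 62.6% of all members and 7.85% of all genes did. Besides alxA the 8 include AN1310 and AN1312 (below), the catechol 1,2-dioxygenase gene AN0764, whose product opens aromatic rings (0.83 ± 0.17, log2, SE, edgeR adjusted p = 0.00846), and the NADH-cytochrome b5 reductase gene AN6386 (1.35 ± 0.34, log2, SE, edgeR adjusted p = 0.024). AN6386 lost the call whichever flask was left out (0.79 without flask 1) and AN0764 without flask 3 (0.84). The superoxide dismutase gene AN0785, which lies near the floor (2.68, 2.17 and 1.33 CPM at 25 min), changed by 0.79 ± 0.41 (log2, SE, edgeR adjusted p = 0.217).

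Transport was the annotation of 9 members, and 6 of them rose (median 1.05). Of 8 members annotated as hydrolases 3 rose (median 1.02). The size of these classes over all genes was not counted either. Neither share was set apart from that of all members (62.6%, against 7.85% of all genes) by a test. The copper-transporting ATPase gene ctpA (AN3624) changed by a similar factor in each flask, from 77.5, 118.9 and 77.5 CPM at 25 min to 170.5, 214.7 and 182.0 CPM at 90 min. Its groups did not overlap, and it rose by 1.09 ± 0.10 (log2, SE, edgeR adjusted p = 0.000118). AN0732 rose by 1.87 ± 0.34 (log2, SE, edgeR adjusted p = 0.00539) and the amino acid transporter gene AN8538 by 1.22 ± 0.25 (log2, SE, edgeR adjusted p = 0.0099). The call of AN0732 was lost without flask 3 (1.60) and that of AN8538 without flask 1 (0.94) or flask 3 (1.06). AN3408, a transporter with the highest level of all members at 0 min (427.5, 570.4 and 270.7 CPM), was at 681.0, 698.1 and 449.0 CPM at 90 min (0.40 ± 0.28 over 25 min, log2, SE, edgeR adjusted p = 0.371) and at 1045, 1516 and 768.1 CPM at 120 min. Its mean change also grew most at the last time, above all in flask 2.

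The protein disaggregase gene hsp104 (AN0858) was at 137.8, 145.2 and 112.4 CPM at 25 min, at 397.6, 445.7 and 109.8 CPM at 90 min and at 412.9, 390.4 and 279.8 CPM at 120 min. Flasks 1 and 2 had risen by 90 min and flask 3 had not, and the fitted change was 1.11 ± 0.36 (log2, SE, edgeR adjusted p = 0.0623). It passed with DESeq2 (1.10) and in the fit of 36 libraries (1.15). Regulatory annotations were few. They were AN1303, with a zinc DNA-binding annotation (1.04 ± 0.18, log2, SE, edgeR adjusted p = 0.00445), AN4795, a guanyl-nucleotide exchange factor of small GTPase signalling (0.64 ± 0.19, log2, SE, edgeR adjusted p = 0.0442), and AN7114, with a protein kinase term (0.98 ± 0.28, log2, SE, edgeR adjusted p = 0.0366). These calls were lost without flask 3 for AN1303 (0.96), whichever flask was left out for AN4795 (0.60 to 0.72), and without flask 1 (0.78) or flask 3 (0.89) for AN7114.

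**Figure D4:**
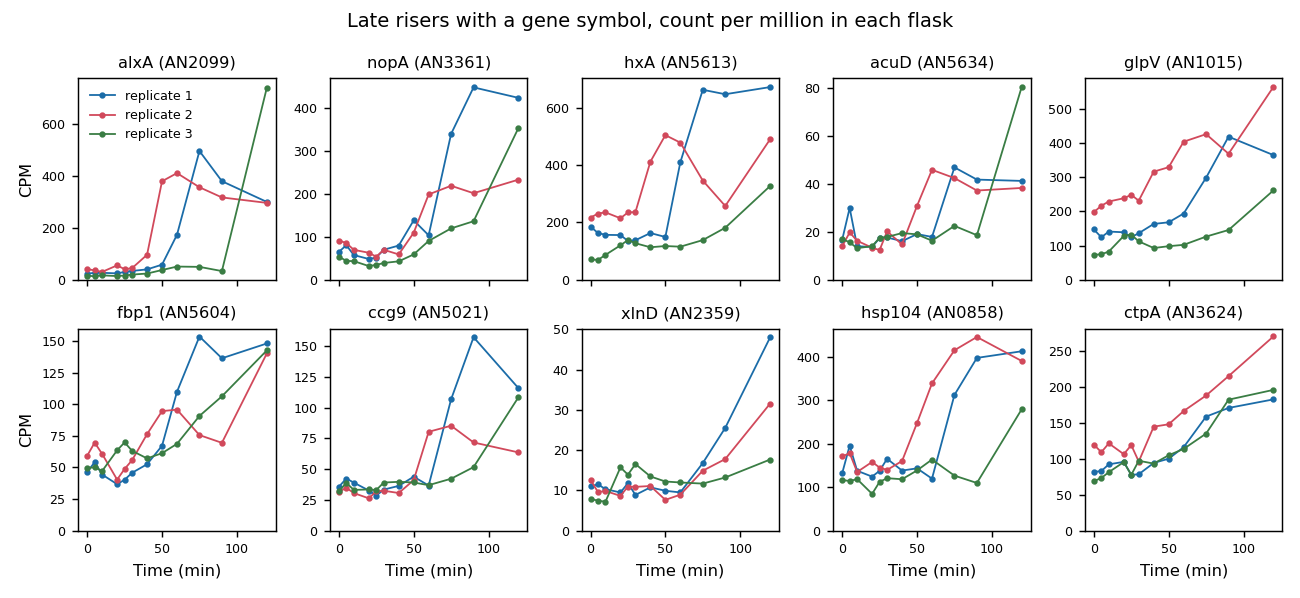
CPM (y axis) against time after micafungin in min (x axis) for the 10 late risers with a gene symbol, one line per replicate flask. alxA rose in flask 2 before flask 1. In flask 3 alxA stood at 16.4 CPM at 0 min, 51.4 CPM at 60 min, 34.2 CPM at 90 min and 736.9 CPM at 120 min. By contrast, ctpA rose in parallel in the 3 flasks.

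Several of the strongest changes were in genes without a named product. In the part of the study's supplement that was read, 27 members had no entry, and 35 were uncharacterized proteins without a gene ontology term. Of these 62 members 42 rose between 25 and 90 min (median 1.22), again beside 62.6% of all members and 7.85% of all genes. The 62 include ccg9, which has a symbol, and AN5977 and AN2039, whose annotation came from outside these entries. AN2039, listed under secondary metabolism in the study's supplement, rose the most in the test, by 2.93 ± 0.22 (log2, SE), or 7.63-fold (edgeR adjusted p = 3.46e-05). It was at 15.5, 31.6 and 13.0 CPM at 25 min, at 181.7, 138.0 and 117.8 CPM at 90 min and at 296.4, 153.7 and 405.4 CPM at 120 min, with no overlap between 25 and 90 min.

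AN0234, with no product name, rose by 2.44 ± 0.17 (log2, SE, edgeR adjusted p = 3.23e-05), from 81.4, 67.7 and 39.9 CPM at 25 min to 410.8, 476.6 and 167.8 CPM at 90 min. AN7295, likewise without one, rose by 2.68 ± 0.30 (log2, SE, edgeR adjusted p = 0.000434), from 41.5, 47.3 and 36.6 CPM to 347.9, 186.6 and 288.9 CPM. Every flask rose in both genes, and none of the groups overlapped. In AN7295 flask 2 rose less (log2 change of CPM + 1 of 1.96, against 3.04 and 2.95 in flasks 1 and 3). AN2445, also unnamed, rose by 2.32 ± 0.42 between 25 and 90 min (log2, SE, edgeR adjusted p = 0.00547), from 2.19, 3.04 and 1.99 CPM to 20.0, 15.1 and 3.49 CPM. Its mean change over 0 min was 1.53 at 90 min and 1.22 at 120 min, and its call was lost without flask 2 (2.26). The unnamed AN4018, among the 5 members with the most reads, rose by 0.99 ± 0.25 (log2, SE, edgeR adjusted p = 0.0221), a call lost without flask 1 (0.87) or flask 3 (0.68).

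In the gene order of the RefSeq assembly ASM1142v1, to which 106 members could be matched, 18 members stood directly beside another member, in 6 pairs and 2 runs of 3. Neighbours were counted among members only, so no share over all genes stands beside this count. Genes that lie side by side and move together are familiar in fungi from clusters for secondary metabolites and nutrient use. The run AN1310, AN1311 and AN1312 carries oxidoreductase or FAD-binding annotations. AN1312 rose from 4.26, 4.23 and 3.45 CPM at 25 min to 21.7, 19.2 and 5.73 CPM at 90 min (1.86 ± 0.27, log2, SE, edgeR adjusted p = 0.00182). AN1310 rose by 1.14 ± 0.25 (edgeR adjusted p = 0.0133), and AN1311 changed by 1.57 ± 0.52 (edgeR adjusted p = 0.0639), on the same scale. AN1311 passed with DESeq2 (1.56) and in the fit of 36 libraries (1.56). The call was lost without flask 1 for AN1312 (1.59) and without flask 2 (1.21) or flask 3 (1.17) for AN1310.

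The other run of 3 holds AN2358 (transmembrane transport), xlnD (AN2359, a β-xylosidase that trims xylan fragments) and the purple acid phosphatase gene AN2360. Only AN2360 of these passed, with 21.8, 28.8 and 19.5 CPM at 25 min and 114.3, 58.3 and 34.3 CPM at 90 min (1.45 ± 0.27, log2, SE, edgeR adjusted p = 0.00555). AN2358 was highest in flask 2 at 90 min and the other members of the run in flask 1. xlnD, at 25.5, 17.8 and 13.2 CPM at 90 min, changed by 0.63 ± 0.23 (log2, SE, edgeR adjusted p = 0.0925) and passed without flask 3 (0.91). Without flask 1 the change of AN2360 was 0.94.

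Among the pairs, AN4480 and AN4481 (the latter annotated to transmembrane transport) both rose, by 1.71 ± 0.22 and 1.42 ± 0.20 (log2, SE, edgeR adjusted p = 0.000866 and 0.00172). AN9179 and AN9180 also both rose, by 1.30 ± 0.31 and 2.05 ± 0.45 (edgeR adjusted p = 0.0193 and 0.0133, log2, SE). In each of the other 4 pairs one gene passed and its neighbour did not. AN4806 rose by 2.40 ± 0.52 beside AN4807 (0.81 ± 0.38), AN7668 by 2.21 ± 0.46 beside AN7669 (0.72 ± 0.31), AN7110 by 1.39 ± 0.38 beside AN7109 (0.71 ± 0.28), and AN6381 by 0.87 ± 0.25 beside AN9499 (0.68 ± 0.31), all log2 with SE. The difference between neighbours was not tested. The calls of AN4806 (1.86 and 1.86), AN7668 (1.83 and 1.78), AN7110 (1.29 and 1.01), AN6381 (0.71 and 0.59) and AN9180 (1.17 and 2.23) were lost without flask 1 or flask 3. That of AN9179 was lost without flask 1 (1.30) or flask 2 (0.87), whereas AN4807 (1.59) and AN9499 (1.17) passed without flask 2.

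**Figure D5:**
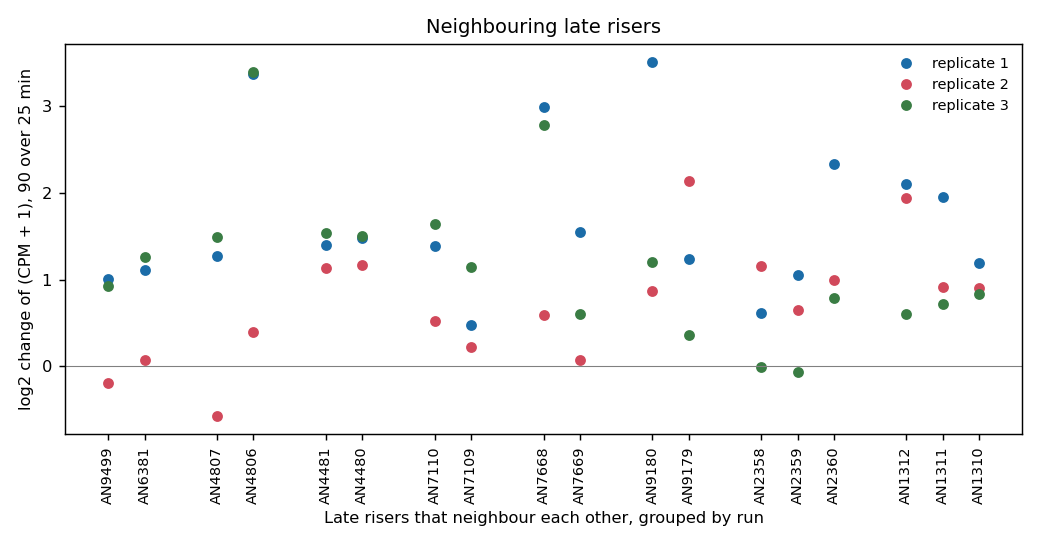
Log2 change of (CPM + 1) between 25 and 90 min (y axis) in each replicate flask (points) for the 18 late risers that neighbour another late riser in RefSeq gene order (x axis, grouped by run). The flasks lie close together for AN4480 and AN4481 and far apart for AN4806 and AN9180.

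At the other end, the 5 members with the smallest fitted change between 25 and 90 min were AN9453 (-0.97 ± 0.49), AN5421 (-0.22 ± 0.77), AN2662 (-0.03 ± 0.24), AN6092 (0.11 ± 0.22) and AN0484 (0.20 ± 0.23), all log2 with SE, and none passed the test (edgeR adjusted p = 0.205, 0.88, 0.959, 0.775 and 0.607). AN9453 was at 1.46, 6.08 and 5.70 CPM at 25 min, at 2.51, 2.24 and 1.62 CPM at 90 min and at 5.45, 15.8 and 3.98 CPM at 120 min. AN5421 was likewise lower at 90 min than at 25 min in flask 3 (1.12 against 5.70 CPM) and highest in flask 2 at 120 min (22.4 CPM). The mean of each of these 5 genes first passed a doubling over 0 min at 120 min.

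Related genes outside the members give the setting, with 2 of 9 genes of the glyoxylate cycle and gluconeogenesis (acuD and AN5604) and 1 of 3 chaperones (hsp104) being late risers. Of the 9 genes 1 rose between 25 and 90 min (acuK, 0.51 ± 0.10, log2, SE, edgeR adjusted p = 0.00739), 5 at an unadjusted p under 0.05 and 4 with DESeq2, with a median of 0.51. Of 3 chaperones 0 rose with edgeR (1 at an unadjusted p under 0.05 and 1 with DESeq2, median -0.07). Of 4 storage sugar genes 0 rose with edgeR (1 at an unadjusted p under 0.05, 0 with DESeq2, median 0.12), and none fell (1 at an unadjusted p under 0.05, 0 with DESeq2). Of 7 peroxisome and fatty acid genes 1 rose (farB, median 0.02), and of 7 antioxidant genes 1 rose (2 with DESeq2, trxA at 1.44 ± 0.40, log2, SE, edgeR adjusted p = 0.0346, median 0.99). Of 16 tested conidiation genes brlA and ivoB rose and 4 fell (velB, flbB, flbC and flbD, median -0.01). Of 5 tested autolysis genes 1 rose (prtA) and 2 fell (chiB and engA, median 0.13). Of 8 nitrogen use genes 0 rose with edgeR (0 at an unadjusted p under 0.05 and 0 with DESeq2) and 3 fell (niaD, crnA and glnA, 5 with DESeq2, median -0.61). Over all genes tested the median was 0.01, and 7.85% rose and 7.15% fell with edgeR, while 9.54% rose with DESeq2. The share that fell with DESeq2 and the shares at an unadjusted p were not counted over all genes.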

How the data were processed

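Total RNA of mycelium was sequenced by the authors as single-end reads, aligned with HISAT2 and counted per gene with HTSeq against the FGSC A4 genome and annotation of Ensembl Fungi, and compared with DESeq2. The release and the use of strand were not given in the sources used here. Overlapping, antisense and near-identical genes are therefore uncertain. The deposited tables hold raw counts per gene, which were used, beside 71 columns of normalized counts and the authors' fold changes and p-values, which were not. The 33 repeats of the 0 min columns were identical.

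Total counts per library ranged from 5814843 to 10846567, and counting noise is largest for members near 1 CPM. The 15 min libraries (1 column name did not match its labels) were left out of the rule and the fits, but counted in the filter on low counts. Same-numbered libraries came from 1 flask sampled in series, per the labels and the study's methods. Deviations from the time point means at 25 and 90 min correlated by 0.06, 0.15 and 0.30 in flasks 1, 2 and 3 (8290 genes).

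The rule was applied to CPM with a pseudocount of 1. Counts of the 15 libraries at 25, 50, 60, 75 and 90 min were fitted in edgeR 4.0.16 (R 4.3.3, glmQLFit and glmQLFTest, TMM) with time and flask as terms, over the 8290 genes that had reads in 2 or more replicates at every time. The standard error is the log2 fold change over the root of the F statistic. p-values were adjusted by the Benjamini-Hochberg method over all genes tested. The fit was also run on simulated counts with set folds. These held no difference between flasks, so that run says nothing on flasks that rise at different times. DESeq2 1.42.0, other scalings, filters, pseudocounts and sets of libraries were tried as alternatives. Members and lists were chosen with earlier results of these data known.

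Named members were the 10 with the largest change between 25 and 90 min that passed and rose in every flask, the 5 with the most reads, those with a symbol, those beside another member, the 5 with the smallest change and those next to the thresholds. Other members were named for their annotation, or for the values themselves, after their values were seen. Product names came from the study's supplement, of which part was read (88 members had an entry, 77 of them as uncharacterized protein), and from RefSeq (assembly ASM1142v1), which matched 8939 of 9541 IDs. Annotation classes were widened to gene ontology terms after the data were seen. They were counted over members only, although a share over all genes had been planned. Lists of related genes covered the glyoxylate cycle and gluconeogenesis, peroxisomes and fatty acid oxidation, conidiation, antioxidant enzymes, autolysis, storage sugars, chaperones and nitrogen use. A planned search of promoters for motifs was not run.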

Additional observations from a re-analysis of the deposited data

How the results depend on the processing

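The fit with the flask as a block was the main one. Without the replicate block the members called were 0 at 50 min, 0 at 60 min, 3 at 75 min, 18 at 90 min (127 of all genes) and 0 between 60 and 90 min. The main fit called 0, 9, 50, 72 (651 of all genes) and 5. Fits of only the compared times gave 0 at 60 min, 0 at 75 min, 1 at 90 min and 1 between 60 and 90 min. Their shares over all genes were 0.0%, 0.0241%, 0.0965% and 0.109%. DESeq2 gave 8 at 50 min, 26 at 60 min and 14 between 60 and 90 min, against 1.04%, 3.0% and 0.856% of all genes. At 75 and 90 min DESeq2 gave 71 and 86, against 7.07% and 9.54% of all genes. Of the 86 at 90 min, 71 were also called in the main fit. The causes were not tested. Leaving out each replicate gave 0 to 4 members at 50 min, 1 to 13 at 60 min, 7 to 33 at 75 min, 26 to 52 at 90 min and 0 to 7 between 60 and 90 min. Size factors, no filter on low counts and a fit of 36 libraries kept each count within 1.5 times the main one. The fit of 36 libraries includes those that the rule used, so it is not independent of how members were picked.

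The rule itself found 80 to 163 members under other scalings, pseudocounts and floors, and 105 to 188 when a replicate was left out. Of the 115 members, 71, 90 and 65 were found without replicates 1, 2 and 3, and 67 with a pseudocount of 5. The median change of the members from 25 to 90 min, 1.04 on the log2 (CPM + 1) scale, ranged from 0.82 to 1.17 over its alternatives.

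Of 36 named members called at 90 min (AN0056 and AN8366 left aside), 24 lost the call without the block, 35 when only the compared times were fitted and 24 when at least 1 of the replicates was left out. Of the 23 not called, 6 passed with DESeq2 and 5 in the fit of 36 libraries, which lost 3 of the 36. AN4081 also lost its call with size factors (0.82) and with no filter (0.80). Another 4 with changes near 0 turned direction. They were AN5421 (0.019 without the block, -0.979 to 0.95 when a replicate was left out), AN6092 (-0.141 to 0.306), AN2662 (0.013 from the compared times alone, -0.239 to 0.156) and AN6836 (-0.065 to 0.764). The cause was not tested. Depth limits the members near 1 CPM the most.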
